A study of Mus musculus with 2 samples.

Results

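Uncx, Tbx18, Tbx6, Mesp1, Mesp2, Ripply1, Ripply2, Cer1, Pcdh8 and Msgn1 are genes of somite segmentation and of the division of each somite into a rostral and a caudal part. These 10 genes were taken by symbol from the 27998 genes measured, and 9 of them had at least 1 UMI (unique molecular identifier, 1 captured RNA molecule) in a kept cell of each library; Msgn1 had none. The study dissected the somites between the fore and hind limb buds of wild type C57BL/6 mouse embryos at embryonic day 9.5 (E9.5) and 11.5 (E11.5) and measured single-cell RNA on the 10x Chromium platform. Neither stage carried a transgene or treatment. Somites of 3 embryos were pooled into 1 library per stage, so the embryos cannot be separated and no difference between the stages has a replicate check or a p-value.

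Somites bud off in pairs from the presomitic mesoderm as the vertebrate body axis grows. In that tissue Tbx6 and Msgn1 set the paraxial fate, oscillating Notch, Wnt and FGF signals act as a clock, and Mesp2 with its paralogue Mesp1 places the next boundary, after which Ripply1 and Ripply2 shut down the programme. Each new somite then keeps a caudal part, where Uncx is known to act, and a rostral part, where Tbx18 is known to act, and this division later shapes the vertebrae and the path of the spinal nerves.

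After removal of barcodes with under 200 genes, with 6500 genes or more, or at 15% or more mitochondrial UMIs, the E9.5 library held 9851 cells with a median of 12462 UMIs and the E11.5 library 9595 cells with a median of 12479. The kept cells held 139643320 and 129754245 UMIs, and 25 barcodes occurred among the kept cells of both libraries. Levels are given as UMIs per 1000000 UMIs of the cells named, with an exact 95% Poisson interval, and shares of cells as found (1 UMI or more), with the share after thinning every cell to 5000 UMIs where depth matters. Intervals and limits cover counting error only. Each library was clustered on its own with the 10 genes left out of the clustering, and clusters were named from marker lists; a cluster that did not meet the naming rule stayed unnamed, which at E11.5 applied to 4456 of the 9595 cells.

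Over all kept cells of a library, Mesp1, Ripply1, Ripply2, Cer1 and Pcdh8 had higher levels at E9.5 than at E11.5. The polarity genes Uncx and Tbx18 were found at both stages at similar levels. Of the 9 genes with 20 or more UMIs over both libraries, the former 5 were at least 2-fold lower at E11.5 and 0 were 2-fold higher, where 5.67% of all 16764 genes tested were 2-fold lower and 24.3% were 2-fold higher. The median log2 ratio of E11.5 over E9.5 was -1.10 over the 9 genes and 0.25 over all genes tested. The mix of cell types differed between the libraries, and its part in these totals was not tested.

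Ripply2, a transcriptional co-repressor of T-box factors, had 512 UMIs in 94 cells at E9.5 (3.67 per 1000000) and 29 UMIs in 27 cells at E11.5 (0.223), a level 16.4-fold higher at E9.5 (95% interval 11.3 to 24.7). Ripply1, its X-linked paralogue, had 99 UMIs in 93 cells and then 4 UMIs in 2 cells. Cer1, a secreted antagonist of Nodal and BMP ligands, had 109 UMIs in 71 cells and then 4 UMIs in 4 cells. These 3 genes showed the widest separation between the stages among the 10, with log2 ratios of -4.04 for Ripply2, -4.52 for Ripply1 and -4.66 for Cer1. The lower counts leave the latter pair of ratios imprecise, with intervals of -6.43 to -3.12 for Ripply1 and -6.56 to -3.26 for Cer1.

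Mesp1, a basic helix-loop-helix factor of early mesoderm, had 41 UMIs in 38 cells and then 8 UMIs in 8 cells (log2 ratio -2.25, interval -3.56 to -1.14). Its neighbour Mesp2 had 37 UMIs in 31 cells and then 20 UMIs in 20 cells (-0.78, interval -1.64 to 0.04). Tbx6, the T-box factor of presomitic mesoderm, had 47 UMIs in 39 cells and then 28 UMIs in 27 cells (-0.64, interval -1.37 to 0.06). For Mesp2 and Tbx6 the interval reached past 0, so a stage difference was not detectable at this depth. At E11.5 a Mesp2 UMI was found in 0.208% of all cells and a Tbx6 UMI in 0.281%. Of 133 red blood-like cells (median 17194 UMIs), 1 (0.752%) also had a Tbx6 UMI. With 1 cell the background is only loosely set, so the E11.5 share of Tbx6 could not be told apart from it.

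Pcdh8, a protocadherin of newly formed somites and of the nervous system, had 1350 UMIs in 701 cells at E9.5 and 586 UMIs in 363 cells at E11.5, a fold of 2.14 (interval 1.94 to 2.36). Uncx, the homeobox gene of the caudal somite, had 1279 UMIs in 800 cells (8.12%) and 1500 UMIs in 855 cells (8.91%). Tbx18, a T-box repressor that maintains the rostral somite, had 1638 UMIs in 1153 cells (11.7%) and 1608 UMIs in 919 cells (9.58%). The log2 ratio of E11.5 over E9.5 was 0.34 for Uncx (interval 0.23 to 0.44) and 0.08 for Tbx18 (interval -0.02 to 0.18), both far under 2-fold. Msgn1 had 0 UMIs in both libraries, which allows up to 0.0305% of cells with a UMI at E9.5 and 0.0313% at E11.5 (3 counts over the cells) and does not limit the cells expressing it.

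**Figure D1:**
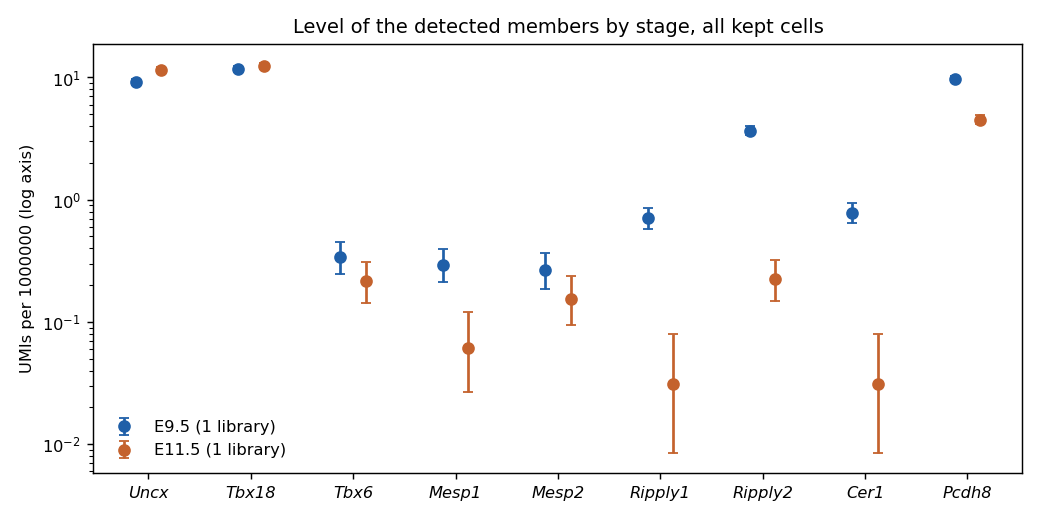
Level of each detected gene in all kept cells of the E9.5 (blue) and E11.5 (orange) library, in UMIs per 1000000 on a log axis; points are the summed level of 1 library and bars the exact 95% Poisson interval. Uncx and Tbx18 each have similar levels at the stages, while Ripply1, Ripply2 and Cer1 lie more than 10-fold lower at E11.5.

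At E9.5 the segmentation genes were concentrated in 1 small cluster of 106 cells, 1.08% of the library, with a median of 12372.5 UMIs. Its leading genes were Pcdh19, Fgf18, Dll3, Ifitm1, Epb41l3, Notch1, Lef1, Synm, Myocd and Tcf15, and it is called presomitic mesoderm-like. The name needs a qualification: Dll3 was its 1 leading gene from the presomitic list and Tcf15, which also led it, belongs to the dermomyotome list. The tailbud genes Wnt3a, Cyp26a1, Cdx2, Nkx1-2 and Fgf4 had 0 UMIs there, T had 10 UMIs, and the somite genes Tcf15 (935 per 1000000) and Meox1 (893) were found in 106 of 106 cells. Against all other cells, T (log2 ratio 2.42) and Hoxb1 (1.86) of the posterior progenitor list were higher there and Cdx1 (-1.04) was lower.

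Upstream sequences are shown for Ripply1, Ripply2 and Mesp2, because these genes were found in the same small cluster and T-box factors such as Tbx6 and Tbx18 are among the 10 genes. Each line gives 250 bases before the gene's start as annotated by RefSeq on GRCm38.p6, read 5′ to 3′ on the gene's strand, with capitals marking the T-box core letters TCACAC.
Ripply1, chrX:139782354-139782603, minus strand: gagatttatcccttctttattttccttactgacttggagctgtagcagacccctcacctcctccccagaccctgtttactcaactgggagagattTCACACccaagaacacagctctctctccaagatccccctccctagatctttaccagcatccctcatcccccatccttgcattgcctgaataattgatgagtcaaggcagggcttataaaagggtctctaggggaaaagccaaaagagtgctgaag
Ripply2, chr9:87015287-87015536, plus strand: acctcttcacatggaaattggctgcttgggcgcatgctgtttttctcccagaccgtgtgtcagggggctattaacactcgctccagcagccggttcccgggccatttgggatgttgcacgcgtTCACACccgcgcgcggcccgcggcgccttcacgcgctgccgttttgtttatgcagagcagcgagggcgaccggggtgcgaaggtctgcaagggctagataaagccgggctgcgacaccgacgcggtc
Mesp2, chr7:79810477-79810726, plus strand: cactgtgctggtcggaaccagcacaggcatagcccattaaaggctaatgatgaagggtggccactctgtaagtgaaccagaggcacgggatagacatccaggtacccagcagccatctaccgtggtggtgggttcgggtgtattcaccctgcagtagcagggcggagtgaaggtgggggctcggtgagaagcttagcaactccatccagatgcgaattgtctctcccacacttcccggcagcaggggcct
On either strand (TCACAC or GTGTGA), these letters occurred in the same window of 4039 of 32851 RefSeq promoters (12.3%) and of 2 of the 10 genes, Ripply1 and Ripply2. None of the 3 windows overlapped another annotated gene. A match of 6 letters describes the sequence and is no evidence of binding.

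Ripply2 was the gene most confined to these cells. The 106 presomitic mesoderm-like cells held 423 of its 512 UMIs (82.6%), a level of 296 per 1000000 (interval 268 to 325), and 44 of them had a UMI (41.5%, or 30.5% after thinning). In the endothelial-like cells, which should lack it, 1 of 372 had a UMI (0.269%, median 14481.5 UMIs), and among the 2505 sclerotome-like cells 9 had one (0.359%). Outside the cluster, 13 UMIs lay in 1 myotome-like cell and 13 in 2 red blood-like cells.

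Ripply2 counts were very uneven between cells. Of the 94 cells with a UMI, 54 had exactly 1 UMI, and 12 of those were presomitic mesoderm-like. The 18 cells with 10 or more held 376 of the 512 UMIs, up to 40 in 1 cell, and 15 of them were presomitic mesoderm-like. In these 18 cells, whose median depth was 16490.5 UMIs, Pcdh8 was found in 17, Mesp2 in 8, Tbx6 in 7, Cer1 in 6, Mesp1 in 5, Tbx18 in 4, Ripply1 in 4 and Uncx in 0.

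Cer1 followed with 65 of its 109 UMIs in the presomitic mesoderm-like cells (59.6%), a level of 45.5 per 1000000 (interval 35.1 to 57.9) and 39 cells (36.8%). Most of the rest, 27 UMIs in 17 cells, came from the 1247 dermomyotome-like cells (1.36% of cells, against 0.806% of endothelial-like cells). Pcdh8 reached 237 per 1000000 in the cluster (interval 212 to 264) and was found in 68 of its cells (64.2%, or 47.6% after thinning).

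The T-box and Mesp genes were sparse even there. Tbx6 had 22 UMIs in 14 of the 106 cells (15.4 per 1000000, interval 9.64 to 23.3), 46.8% of its UMIs in the library. Mesp1 had 17 UMIs in 14 cells (11.9 per 1000000), 41.5% of its UMIs, and Mesp2 had 14 UMIs in 8 cells (9.79), 37.8% of its UMIs. Elsewhere Tbx6 and Mesp2 could not be told apart from background. Tbx6 was found in 0.401% of dermomyotome-like and 0.24% of sclerotome-like cells against 0.538% of endothelial-like cells. For Mesp2 the shares were 0.401% and 0.12% against 0.269%. Mesp1 was found in 11 dermomyotome-like cells (0.882%) and 9 sclerotome-like cells (0.359%) against 0 of 372 endothelial-like cells, which allows up to 0.806%.

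Ripply1 departed from Ripply2 in where it was found. Its level was highest in the presomitic mesoderm-like cells, at 7.69 per 1000000 (11 UMIs, interval 3.84 to 13.8), but these held only 11.1% of its UMIs. Sclerotome-like cells held 49 of its 99 UMIs (1.56 per 1000000, interval 1.16 to 2.07), and dermomyotome-like cells held 25 (1.13, interval 0.73 to 1.67). The shares of cells were 1.84% and 2.00%, above the 0.269% of endothelial-like cells, and 0.866% and 0.406% after thinning, where endothelial-like cells had 0.

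Pcdh8 was also a neural gene in both libraries. Neural tube progenitor-like cells held 613 of its 1350 UMIs at E9.5 (45.4%), at 24.2 per 1000000 and in 20.5% of cells, and neuron-like cells reached 34.2 (interval 26.9 to 42.8). Floor plate-like cells stood at 14.0 and neural crest-like cells at 9.68, while the sclerotome-like cluster was at 0.447. At E11.5 the levels were 39.9 in neural tube progenitor-like, 29.0 in neuron-like and 10.0 in neural crest-like cells, and cartilage-like cells were at 8.08 (interval 6.93 to 9.37). The intervals of the neural tube progenitor-like and neuron-like cells overlapped at E11.5. Neural tube progenitor-like cells numbered 1844 at E9.5 and 229 at E11.5. The part of this in the lower library total of Pcdh8 at E11.5 was not tested.

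At E11.5 no cluster met the naming rule for presomitic mesoderm. Of the 29 Ripply2 UMIs, 12 lay in 10 cells of an unnamed cluster of 28 cells led by Dbh, Phox2a, Chgb, Chga and Th, which are genes of catecholamine-producing cells of the sympathetic lineage. That is a level of 26.8 per 1000000 (interval 13.8 to 46.7), and a further 9 UMIs were spread over 9 cartilage-like cells (0.48%).

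**Figure D2:**
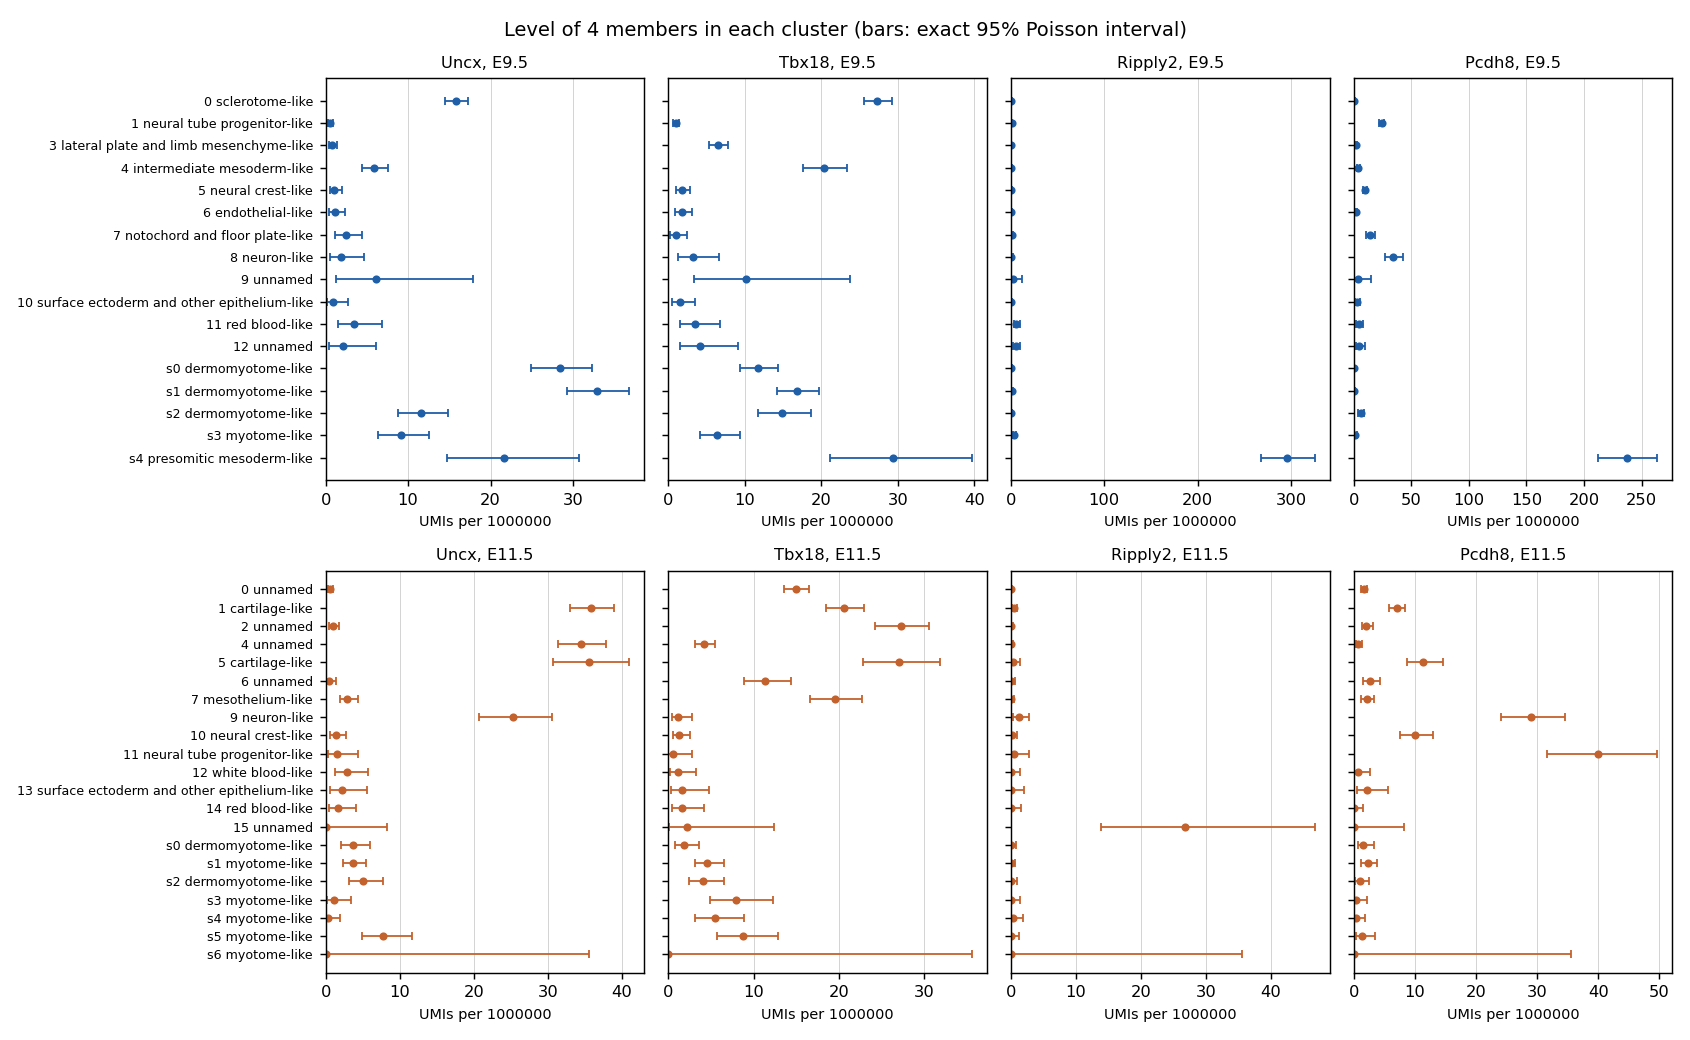
Level of Uncx, Tbx18, Ripply2 and Pcdh8 in each cluster at E9.5 (top, blue) and E11.5 (bottom, orange), in UMIs per 1000000 on linear axes that differ between panels; points are the summed level of a cluster and bars the exact 95% Poisson interval. At E9.5 Ripply2 and Pcdh8 peak in the presomitic mesoderm-like cluster (296 and 237), whereas Uncx and Tbx18 are spread over the sclerotome-, dermomyotome- and presomitic mesoderm-like clusters.

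The segmentation genes were found together in the same cells far more often than their frequencies give. The expected number of cells with both genes was computed within 10 equal bins of UMI depth, since deeper cells show more of every gene. Over all E9.5 cells, 17 of the 21 pairs among Tbx6, Mesp1, Mesp2, Ripply1, Ripply2, Cer1 and Pcdh8 had an interval of observed over expected above 1. The same share was not computed over other gene pairs, so this count has no background. Ripply2 and Cer1 shared 18 cells where 0.87 were expected (ratio 20.7, interval 12.2 to 32.7).

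Ripply2 was the common partner. It shared 13 of the 38 Mesp1 cells (0.42 expected), 12 of the 39 Tbx6 cells (0.42 expected) and 10 of the 31 Mesp2 cells (0.42 expected). Pcdh8 was found in 52 of the 94 Ripply2 cells (55.3%) where 8.02 were expected, a ratio of 6.48 (interval 4.84 to 8.50), and in 28 of the 71 Cer1 cells where 6.09 were expected. Mesp1 and Mesp2, which lie close together on chromosome 7, shared 5 cells where 0.13 were expected.

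All 4 pairs whose interval reached 1 involved Ripply1. Ripply1 and Pcdh8 shared 11 cells where 7.76 were expected (ratio 1.42, interval 0.71 to 2.54), and Ripply1 and Cer1 shared 3 where 0.84 were expected (interval 0.74 to 10.4). Ripply1 shared 2 cells each with Tbx6 and Mesp2 (0.39 and 0.40 expected). It did share 5 cells with Ripply2 where 1.10 were expected (ratio 4.56, interval 1.48 to 10.6) and 4 with Mesp1 where 0.41 were expected.

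Inside the cluster no pair had an interval above 1, and many counts were low. The pairs with most shared cells there had intervals below their ratios over all cells. Ripply2 and Pcdh8 shared 36 (28.9 expected, interval 0.87 to 1.73) against a ratio of 6.48 over all cells. Cer1 and Pcdh8 shared 24 (26.2 expected, 0.59 to 1.36) against 4.60, and Ripply2 and Cer1 15 (17.8 expected, 0.47 to 1.39) against 20.7. The part of the shared cluster in the ratios over all cells was not tested. Among the 106 presomitic mesoderm-like cells the 21 ratios ran from 0.84 (Ripply2 and Cer1) to 2.54 (Mesp1 and Mesp2), and every interval included 1. Mesp1 and Ripply2 shared 12 cells where 7.04 were expected (ratio 1.71), and Tbx6 and Ripply2 shared 10 where 5.92 were expected (ratio 1.69, interval 0.81 to 3.11). Pcdh8 was found in 8 of the 8 Mesp2 cells there, the most possible, and the interval of that ratio was still 0.59 to 2.70; it was also found in 9 of the 9 Ripply1 cells.

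Cells with several segmentation genes were rare. Of the 6 genes Tbx6, Mesp1, Mesp2, Ripply1, Ripply2 and Cer1, exactly 1 was found in 256 E9.5 cells, of which 42 were presomitic mesoderm-like. A pair was found in 23 cells (14 of them presomitic mesoderm-like), 3 genes in 13 cells (11), 4 genes in 5 cells (5) and 5 genes in 1 cell. Cells with more of these genes thus lay increasingly in the cluster, and at E11.5 all 88 cells with any of the 6 had exactly 1.

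Both polarity genes were also set against the segmentation genes at E9.5, over all cells. Tbx18 was found in 28 of the 71 Cer1 cells where 9.35 were expected (ratio 2.99, interval 1.99 to 4.33), in 27 of the 93 Ripply1 cells (12.4 expected) and in 12 of the 38 Mesp1 cells (4.71 expected, interval of the ratio 1.32 to 4.45). For Uncx, the corresponding counts were 13 Cer1 cells (7.05 expected, interval 0.98 to 3.16), 15 Ripply1 cells (9.32 expected) and 3 Mesp1 cells (3.39 expected), and none of these 3 intervals lay above 1. With Tbx6 the ratios were 1.04 for Tbx18 and 1.15 for Uncx, and with Pcdh8 they were 0.50 and 0.44, both intervals below 1. The Cer1 intervals of Tbx18 and Uncx overlapped, as did those of Ripply1 and Mesp1. The difference between the Tbx18 and Uncx ratios was not tested. Within the 106 presomitic mesoderm-like cells the Tbx18 ratios were 1.31 with Cer1, 1.04 with Ripply1, 1.74 with Mesp1 and 1.12 with Pcdh8. Those of Uncx were 1.00, 0, 0 and 0.59, and every one of these intervals included 1. The part of the tissue mix in the ratios over all cells was not tested.

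**Figure D3:**
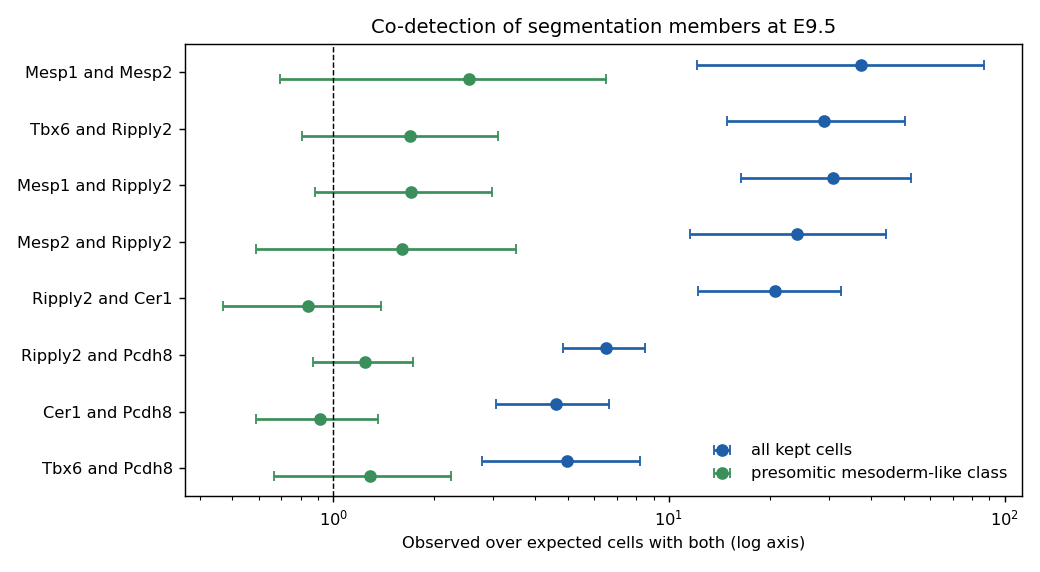
Observed over expected number of cells with both genes at E9.5, on a log axis, for 8 pairs of segmentation genes; points are ratios and bars exact 95% Poisson intervals, over all kept cells (blue) and within the presomitic mesoderm-like cells (green), and the dashed line marks 1. Every blue interval lies above 1 and every green interval crosses it.

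Other genes of the pathway were described from fixed lists, against all genes with 100 or more UMIs in the library. Because the clustering used these genes, their levels in the presomitic mesoderm-like cells describe that cluster and test nothing. Of 15 segmentation clock genes, 9 were at least 2-fold higher there than in all other E9.5 cells and 0 were lower, with a median log2 ratio of 1.04, where 3.80% of 12459 genes were 2-fold higher, 17.6% were lower and the median was -0.08. Hes7, the oscillating repressor of the clock, stood at 32.2 against 1.19 per 1000000 (log2 ratio 4.76), Dll3 at 127 against 7.05 (4.17), Notch1 at 371 against 42.5 (3.13) and Lfng, the oscillating Notch modifier, at a log2 ratio of 2.27. Hes1 (-0.04) and the Wnt target Axin2 (0.01) were close to the other cells.

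Genes of the boundary and the somite epithelium went the same way, with 9 of 13 at least 2-fold higher and 0 lower. Among them Tcf15 had a log2 ratio of 2.87, Foxc2 of 2.54, the ephrin ligand Efnb2 of 2.26, its receptor Epha4 of 2.08 and Fn1, the fibronectin gene, of 1.68. Of 9 sclerotome genes tested, 5 were at least 2-fold lower, among them Pax1 (-3.34) and Sox9 (-2.28), and Foxc2 alone was higher. Of 9 posterior progenitor genes, 3 were higher and 5 lower.

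The cells chosen by a gene of the 10, rather than by cluster, gave a graded picture. In the 94 Ripply2-positive cells, 5 of 15 clock genes were at least 2-fold higher than in all other cells and 0 were lower (background 1.93% higher and 10.0% lower of 12458 genes): Hes7 (4.69), Dll3 (3.51), Notch1 (2.24), Dll1 (1.90) and Lfng (1.56). In the 39 Tbx6-positive cells the count was 8 of 15 (background 5.24% higher and 14.4% lower), and in the 71 Cer1-positive cells it was 8 of 15 for the clock and 8 of 13 for the boundary genes (background 3.29% higher and 13.1% lower). In the 93 Ripply1-positive cells 1 of 15 clock genes was higher and 3 were lower, while 6 of 13 boundary and epithelium genes were higher (background 1.66% higher and 11.8% lower). Ripply1 thus kept company with somite genes such as Tcf15 (1.28) and Dmrt2 (1.67) rather than with clock genes.

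Uncx and Tbx18 were both genes of the somite derivatives at E9.5, with different centres. Uncx was highest in the dermomyotome-like clusters, at 26.3 per 1000000 (583 UMIs, interval 24.2 to 28.5) and in 26.3% of cells, followed by the presomitic mesoderm-like cluster at 21.7 (interval 14.7 to 30.8) and the sclerotome-like cluster at 15.8 (interval 14.4 to 17.3). Tbx18 was highest in the presomitic mesoderm-like cluster at 29.4 (interval 21.2 to 39.7) and the sclerotome-like cluster at 27.3 (856 UMIs, interval 25.5 to 29.2), followed by intermediate mesoderm-like cells at 20.3 and dermomyotome-like cells at 14.5 (interval 12.9 to 16.2). For each gene the intervals of its top 2 groups overlapped, and the dermomyotome-like and sclerotome-like intervals did not.

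Outside the somite derivatives both genes were mostly near background, with exceptions. Uncx was found in 1.34% and Tbx18 in 2.96% of endothelial-like cells (median 14481.5 UMIs), and each in 5.22% of the 134 red blood-like cells (median 15312.5 UMIs). Uncx in intermediate mesoderm-like cells (43 of 776, 5.54%) was close to the red blood-like share but above the endothelial-like share. Of those 43 cells, 13 had 2 or more Uncx UMIs, so background was not settled for them. Tbx18 in intermediate mesoderm-like cells (17.8%, median 11132.5 UMIs) exceeded both shares. Lateral plate and limb mesenchyme-like cells had Tbx18 in 7.48% (6.49 per 1000000).

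At E11.5, where no cluster was named sclerotome, the highest levels lay in other groups. Uncx was at 35.8 per 1000000 in the cartilage-like clusters (780 UMIs, interval 33.3 to 38.4), which held 52.0% of its UMIs, at 34.5 in an unnamed cluster of 859 cells led by Tnc, Hlx, Fmod and Scx, and at 25.3 in neuron-like cells (108 UMIs in 61 cells, interval 20.7 to 30.5). Its level in dermomyotome-like cells was 4.35, against 26.3 at E9.5, but the name covers unlike cells at the stages. Dmrt2 and Tcf15 were among the leading genes of these clusters at E9.5, and Msc, Myf5 and Pax7 at E11.5. Tbx18 was at 22.2 in the cartilage-like clusters (interval 20.2 to 24.2), at 27.3 in another unnamed cluster and at 19.5 in mesothelium-like cells (interval 16.6 to 22.7). It was at 4.22 in the unnamed cluster led by Tnc and at 1.17 in neuron-like cells, both places where Uncx was high. White blood-like cells, which should lack both, had each gene in 0.957% of 209 cells (median 11221 UMIs).

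In cells with Pax1 or Pax9, Uncx and Tbx18 were found together less often than expected at both stages. The question was asked in cells with a UMI of Pax1 or Pax9, paired-box genes of the sclerotome. At E9.5 there were 2292 such cells, 1665 of them in the sclerotome-like cluster and 262 in the dermomyotome-like clusters. Uncx was found in 399 of them (17.4%) and Tbx18 in 553 (24.1%), but both in only 28 (1.22%, exact binomial interval 0.81% to 1.76%). The expected number was 99.4, so the ratio was 0.28 (interval 0.19 to 0.41).

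At E11.5 the picture was nearly the same. Of 2473 Pax1 or Pax9 cells, 1219 were cartilage-like and 1009 lay in unnamed clusters. Of the latter, 402 lay in a cluster led by Pitx1, Emx2 and Osr1, and 297 in one led by Osr1 and E330013P04Rik. A further 275 lay in the one led by Tnc. The E11.5 set thus reached beyond cells named for sclerotome or cartilage. Among the 2473 cells, Uncx was found in 505, Tbx18 in 435 and both in 23, where 89.5 were expected, a ratio of 0.26 (interval 0.16 to 0.39). The intervals of the 2 stages overlapped almost wholly.

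At both stages Tbx18 was found less often in Pax1 or Pax9 cells with Uncx than in those without. At E9.5 it was found in 27.7% of the cells without Uncx and in 7.02% of the 399 with a Uncx UMI. The share was 4.23% of the 142 with 2 or more (6 cells) and 1.69% of the 59 with 3 or more (1 cell). At E11.5 the shares were 20.9%, 4.55%, 4.10% and 2.65%. A trend with the Uncx count was not tested, as the groups with Uncx are nested and few of their cells have Tbx18. The cells with both were deeper, with a median of 25412.5 UMIs at E9.5 against 14050 for cells with only Uncx and 13540 for cells with only Tbx18. Scrublet, which scores likely doublets, called 8 of the 28 (28.6%) against 12.1% and 12.4% of the others. At E11.5 the medians were 18673 against 13672 and 12343, and 2 of the 23 were called. Without Scrublet calls the ratio was 0.24 at E9.5 (20 cells, 84.3 expected) and 0.26 at E11.5 (21 cells, 81.9 expected). After thinning to 5000 UMIs it was 0.0751 (1 cell, 13.3 expected) and 0.19 (4 cells, 21.4 expected). The part of depth and doublets in the cells with both was not tested further.

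Low co-detection was also found in other groups of cells, but these share cells with the Pax1 or Pax9 set and are not independent of it. In cells with both Pax1 and Pax9 the ratio was 0.28 at E9.5 (9 cells, 31.9 expected) and 0.20 at E11.5 (9 cells, 44.4 expected). In Pax1 or Pax9 cells inside the sclerotome-like cluster it was 0.24 (18 cells, 75.7 expected), and inside the E11.5 cartilage-like clusters also 0.24 (16 cells, 67.0 expected); this restriction was chosen after seeing the data. In the 1247 dermomyotome-like cells of E9.5, a dorsal derivative, both genes were found in 19 cells where 61.5 were expected, a ratio of 0.31 (interval 0.19 to 0.48). In the presomitic mesoderm-like cells 0 cells had both, but 3.66 were expected and the interval reached 1.01. Among the 545 dermomyotome-like cells of E11.5, 0 had both where 1.68 were expected, and the interval reached 2.20. In the E11.5 unnamed cluster led by Tnc, 6 cells had both where 10.4 were expected. That ratio was 0.58, with an interval of 0.21 to 1.26. Taking every kept cell, the ratio was 0.45 for the earlier stage (interval 0.33 to 0.60) and 0.36 for the later one (interval 0.24 to 0.51).

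**Figure D4:**
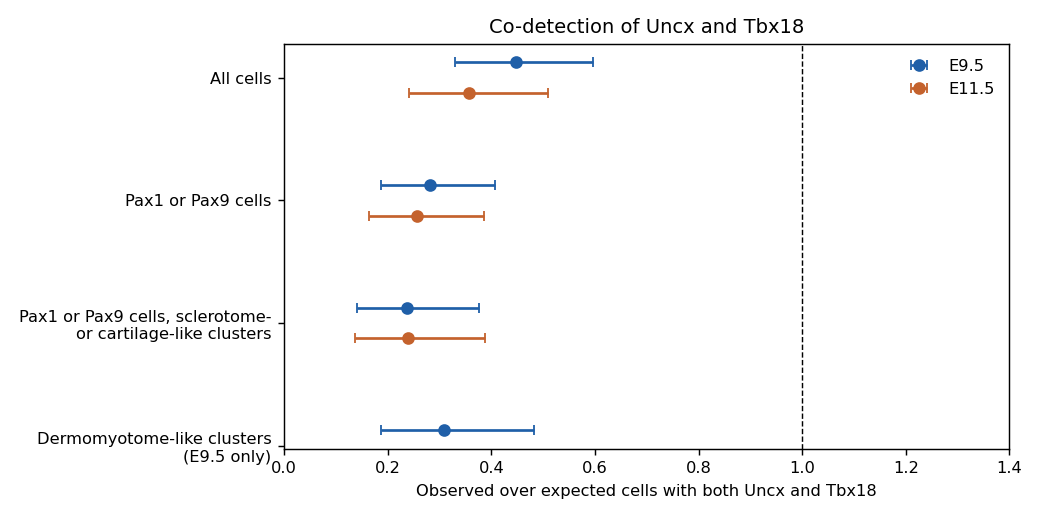
Observed over expected number of cells with both Uncx and Tbx18, on a linear axis, at E9.5 (blue) and E11.5 (orange). For E9.5, 4 sets of cells are shown, and for E11.5 the same sets without the dermomyotome-like cells. Points are ratios, bars exact 95% Poisson intervals and the dashed line marks 1. All plotted intervals lie below 1, with ratios of 0.45 or less.

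The cells with only Uncx and those with only Tbx18 were then compared gene by gene, over genes with 100 or more UMIs in both sets together, without Uncx, Tbx18, Pax1 and Pax9. Cells of 1 library are not replicates, so these are descriptions. Among Pax1 or Pax9 cells at E9.5 (371 with only Uncx, 525 with only Tbx18), 9 of 8346 genes were at least 2-fold higher with Uncx (0.108%) and 22 were 2-fold higher with Tbx18 (0.264%). Nearly all genes tested were thus within 2-fold between the sets. Over all E9.5 cells, 63% of those with Uncx and 71.6% of those with Tbx18 had exactly 1 UMI of it. A gene present but not captured can place a cell in the wrong set. The counts therefore do not measure how alike the cells are.

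The genes that did differ included known genes of the caudal somite. Dll1, the Notch ligand of the caudal side, had 99 UMIs in cells with only Uncx and 27 in cells with only Tbx18 (log2 ratio 2.31, interval 1.69 to 2.98) and was found in 15.6% and 3.62% of cells. Plxna2, a semaphorin receptor, had 279 and 91 UMIs (2.05). Efnb2, an ephrin ligand of the caudal side, had 154 and 84 (1.31, interval 0.92 to 1.71), and the Groucho-type corepressor Tle4 (1.23) and the Notch target Heyl (1.19) followed.

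On the Tbx18 side Nrp2, a neuropilin that binds semaphorins, had 234 UMIs with only Uncx and 1056 with only Tbx18 (-1.74) and was found in 34.2% and 74.9% of cells. Asb4 had 136 and 573 UMIs (-1.64), and the carbonyl reductase gene Cbr3 had a log2 ratio of -1.68. The haemoglobin genes Hbb-bs (-1.75) and Hbb-bh1 (-1.52) were also among the 5 lowest, but Hbb-bs was found in 0.27% and 0.57% of the cells, and its direction turned once Scrublet calls were left out. Of the other genes known for the rostral or caudal side, Epha4 (0.38), Hey1 (0.32), Sema3f (0.26), Kitl (-0.34) and Fgfr1 (0.07) were all within 2-fold.

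The 2 sets differed in their clusters, so the comparison was repeated within them, a choice made after seeing the data. Inside the sclerotome-like cluster (260 and 415 Pax1 or Pax9 cells), 11 of 7272 genes were at least 2-fold higher with Uncx (0.151%) and 19 with Tbx18 (0.261%). Plxna2 had 155 and 35 UMIs (2.80), Efnb2 94 and 31 (2.25), Tle4 a log2 ratio of 1.43 and Heyl of 1.37, while Nrp2 stood at -2.18, the limb and mesenchyme gene Prrx1 at -1.97 and Asb4 at -1.72. Hbb-bh1 was at 0.12 there. Dll1 was too low to enter, with 28 and 6 UMIs.

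The dermomyotome-like cells, other cells with their own 309 Uncx-only and 201 Tbx18-only cells, showed much of the same order. Scrublet called 29 of the 309 (9.39%) and 41 of the 201 (20.4%). Of these calls, 26 and 36 lay in 1 of the dermomyotome-like clusters, with 242 cells. Scrublet called most cells of that cluster, whichever of the genes they had. The calls were 26 of its 38 Uncx-only cells and 36 of its 48 Tbx18-only cells. They also took in 4 of its 5 cells with both genes and 89 of its 151 with neither. The part of doublets in the shared order was not tested. Over all the dermomyotome-like cells, 5 of 7297 genes were higher with Uncx and 5 with Tbx18 (0.0685% each). Dll1 had 153 and 23 UMIs (2.20) and was found in 29.1% and 8.96% of cells, Plxna2 had 302 and 74 (1.50), and Igfbp5 (1.45) and Pdzd2 (1.19) followed. On the Tbx18 side stood the Wnt antagonist Frzb (-1.61), Asb4 (-1.56) and Mecom (-1.19).

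Signs were compared between the sclerotome-like and the dermomyotome-like cells, which share no cell but come from 1 library. Of the 9 genes 2-fold higher with Uncx in the former and tested in the latter, 7 were also positive in the latter, and of the 10 genes 2-fold higher with Tbx18, 8 were also negative. Over all 6992 genes tested in both, 50.5% were positive in the dermomyotome-like cells. Efnb2 (0.88), Tle4 (0.62) and Nrp2 (-0.93) kept their sign at smaller size, whereas Hopx, at 1.39 in the sclerotome-like cells, was negative in the dermomyotome-like cells. At E11.5, between cartilage-like and dermomyotome-like cells, 2 of 2 genes on the Uncx side were positive and 7 of 14 on the Tbx18 side were negative. The dermomyotome-like cells there gave only 30 Uncx-only and 23 Tbx18-only cells, so these signs are loosely set. Over all 1496 genes tested in both, 50.2% were positive.

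**Figure D5:**
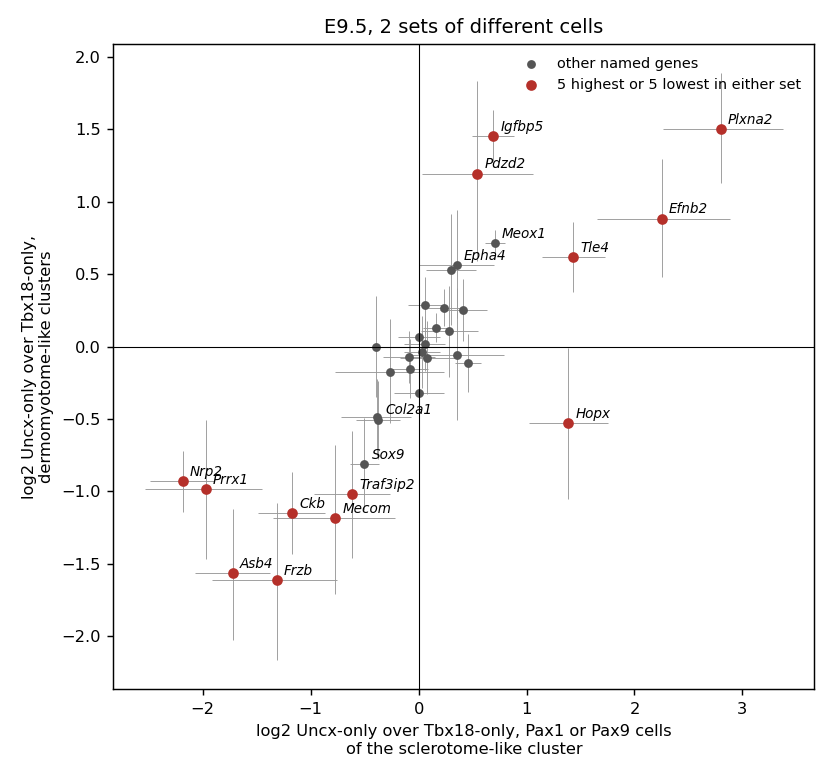
Log2 ratio of cells with only Uncx over cells with only Tbx18 at E9.5, in Pax1 or Pax9 cells of the sclerotome-like cluster (x axis) and in dermomyotome-like cells (y axis); each point is 1 of 35 genes and bars are 95% intervals, with the 5 highest and 5 lowest genes of either set in red. Of the 35 genes, 29 have the same sign on both axes, and Hopx is the red point that does not. The red genes were picked for extreme values on these same axes, so this count describes the plot and tests nothing.

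At E11.5 the 2 sets differed more. Among Pax1 or Pax9 cells (482 with only Uncx, 412 with only Tbx18), 67 of 8714 genes were at least 2-fold higher with Uncx (0.769%) and 209 with Tbx18 (2.40%). The highest with Uncx were the matrix genes Tnc (359 and 26 UMIs, 3.43) and Fmod (3.12), followed by Arhgef3 (2.87), the haemoglobin gene Hbb-bt (2.72) and Irx2 (2.37). The highest with Tbx18 were the LIM homeobox gene Lhx9 (4 and 154 UMIs, -5.63), S100a6 (-4.12), Emx2os (-4.10), E330013P04Rik (-3.92) and Irx3 (-3.73). The sets lay in different clusters. Uncx was at 34.5 and Tbx18 at 4.22 per 1000000 in the unnamed cluster led by Tnc. Among all 1738 cells of an unnamed cluster led by Pitx1, Emx2 and Osr1, 193 had Tbx18 and 13 had Uncx. Among all 1227 cells of another, led by Osr1 and E330013P04Rik, 163 had Tbx18 and 10 had Uncx. Emx2os was among the leading genes of each. The part of these cluster differences was not tested in this comparison.

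Within the E11.5 cartilage-like clusters (337 and 206 Pax1 or Pax9 cells), the counts were 20 and 109 of 7141 genes (0.280% and 1.53%). Irx2 (2.80) and Irx1 (2.28), transcription factors of the Iroquois family, led on the Uncx side, Tnc was at 1.82 and Plxna2 had 128 and 22 UMIs (1.73). Tagln (-4.60), a gene of contractile cells, led on the Tbx18 side, followed by Ppp1r1a (-3.57) and Anxa2 (-2.40). Sox9 (0.32) and Col2a1 (0.65), genes of cartilage formation, were within 2-fold there, and E330013P04Rik was at 0.19. Dll1 had 1 and 4 UMIs in all Pax1 or Pax9 cells of this stage, so the E9.5 difference could not be followed.

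Sclerotome genes were described in the cells positive for each polarity gene. In E9.5 cells with Uncx, 5 of the 9 sclerotome genes tested were at least 2-fold higher than in all other cells (background 0.763% higher and 7.10% lower), among them Pax1 (1.33) and Pax9 (1.31), and in those with Tbx18 3 of 9 were (background 0.730% higher and 5.86% lower), with Pax1 at 1.26. The medians of the 9 genes were 1.16 and 0.88. At E11.5 the counts were 8 of 9 for Uncx (background 1.32% higher and 9.38% lower), led by Col2a1 (2.28) and Pax9 (2.20), and 2 of 9 for Tbx18 (background 0.915% higher and 5.75% lower), Pax1 (1.24) and Pax9 (1.13). The difference between the Uncx and Tbx18 counts was not tested.

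Likeness was measured by the phi coefficient of detection over the 9851 E9.5 cells, among 14786 genes found in 20 or more cells. All cells of a library share its depth range, and the coefficients were low, so they only order genes. Nearest to Uncx were Tcf15 (0.280), Meox1 (0.260) and Foxc2 (0.248), and nearest to Tbx18 were Foxd1 (0.291), Twist1 (0.242) and Foxc1 (0.237). Nearest to Tbx6, Mesp1 and Mesp2 was the same gene, Ripply2, at 0.193, 0.213 and 0.181, and nearest to Ripply2 were Cer1 (0.214), Mesp1 (0.213) and Hes7 (0.211). Cer1 was followed by Ripply2 (0.214), Myocd (0.212) and Dll3 (0.176). Pcdh8 lay with the neural genes Sox2 (0.264), Rfx4 (0.253) and Pax6 (0.245), and Ripply1 reached only 0.088, with Tcf15. Over the 9595 E11.5 cells, Uncx lay nearest to the cartilage collagen genes Col9a1 (0.342), Col9a2 (0.317) and Col9a3 (0.295), and Tbx18 to Cxcl12 (0.185), Hoxd11 (0.172) and Sema5a (0.154).

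In GENCODE M21 on GRCm38, Mesp1 (chr7:79792241-79793788, minus strand) and Mesp2 (chr7:79810727-79813439, plus strand) lie close together on opposite strands. Tbx18 (chr9:87702800-87731260, minus strand) overlaps the plus-strand gene D030062O11Rik, and Pcdh8 (chr14:79766775-79771312, minus strand) overlaps the plus-strand gene Gm9748. The exons of none of the 10 genes overlapped those of another gene on the same strand. Uncx lies at chr5:139543494-139548179, Tbx6 at chr7:126781483-126785560, Ripply1 at chrX:139779549-139782353, Ripply2 at chr9:87015537-87019917, Cer1 at chr4:82881751-82885148 and Msgn1 at chr12:11208360-11208972.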

How the data were processed

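Inter-limb somites of 3 pooled mouse embryos per stage were measured in 1 library at E9.5 and 1 at E11.5. The deposited matrices hold whole-number UMI counts per gene and barcode, made by the authors with Cell Ranger 3.0.1 on mm10 per the submitters' processing notes. Barcodes were kept at 200 or more and under 6500 genes and under 15% mitochondrial UMIs, which left 9851 of 10121 (E9.5) and 9595 of 10167 (E11.5). Total counts were 149368952 and 136655763 UMIs.

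Each library was clustered alone in Seurat 5.3.0 (R 4.3.3) after the study's methods: scaling to 10000, 2000 variable genes, cell cycle scores regressed out, 18 dimensions and resolution 0.4. The 10 genes were left out of the variable genes. Clusters named presomitic mesoderm, dermomyotome or myotome were pooled and clustered again with 15 dimensions. A name needed at least 3 detected markers and no lead of another list among the 10 leading genes. Doublets were not removed; Scrublet (scanpy 1.11.5) called 6.75% and 4.00% of barcodes, and leaving these out was an alternative.

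With 1 library per stage no test was run. Intervals are exact (95%, Poisson or binomial, scipy 1.17.1). A difference is called 2-fold at a log2 ratio of at least 1 or at most -1, among genes with 20 or more UMIs between stages, or 100 or more elsewhere. Expected co-detection was summed over 10 equal bins of UMI depth. Beside the 10 genes, those named are 5 fixed lists (posterior progenitor, segmentation clock, boundary and somite epithelium, rostral or caudal side, sclerotome), the 5 highest and 5 lowest genes of a comparison and the 3 nearest by phi; other genes named, such as Hopx and Prrx1, lead a comparison added later. The genes and lists were chosen with earlier results of these data known. The computations were tested on simulated data. Alternatives were thinning to 5000 UMIs, which left out 537 and 727 cells, detection from 2 UMIs, 1000 or more genes per cell, other clusterings and Pax gates, and a lower count minimum.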

Additional observations from a re-analysis of the deposited data

Results flagged for a closer look

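Among the listed genes, 7 had opposite signs at the stages in Pax1 or Pax9 cells with only Uncx over those with only Tbx18, with neither interval reaching 0. The share of such genes among all genes tested at both stages was not computed, so this count has no background. Efnb2 was at 1.31 at E9.5 and -0.42 at E11.5 on the log2 scale, Epha4 at 0.38 and -1.50, Hes1 at 0.23 and -0.30, Aldh1a2 at 0.33 and -2.83, and Dmrt2 at 0.96 and -1.57. Sox9 went the other way, from -0.65 to 0.89, as did Col2a1, from -0.42 to 1.37. The difference between the stages was not tested, and the clusters that hold these cells differ between the stages. Within the cartilage-like clusters at E11.5, Efnb2 was at -1.01 and Epha4 at -0.44.

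Barcodes left out for their gene number or mitochondrial share also held these genes, above the limit that a count of 0 allows. The 270 such barcodes at E9.5 held 86 UMIs of Uncx, 57 of Tbx18, 8 of Ripply2, 6 of Cer1 and 78 of Pcdh8. The 572 at E11.5 held 38 of Uncx, 59 of Tbx18 and 42 of Pcdh8. Of the 34 E9.5 barcodes with Uncx, 33 had 6500 or more genes, as did 30 of the 31 with Tbx18.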

How the results depend on the processing

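No paired analysis was possible because each stage is 1 library and no result comes from a test; for the same reason no replicate could be left out. Of the recomputed summary values, 37 stayed close to the reported ones and 14 moved. The E9.5 Uncx and Tbx18 ratio of 0.28 was 0.0751 after thinning (1 cell, 13.3 expected) and 0.083 with detection from 2 UMIs (1 cell, 12.0 expected), and 0.22 to 0.29 under the other alternatives; at E11.5 it was 0.19 to 0.26. The presomitic mesoderm-like share of Ripply2 UMIs was 87.8% without Scrublet calls. With a minimum of 50 UMIs, the genes 2-fold higher with Uncx and with Tbx18 numbered 22 and 46 in the E9.5 cells, then 104 and 316 in the E11.5 cells. After thinning they were 3 and 6, and 25 and 53. Without Scrublet calls, 15 were higher with Uncx at E9.5, and within the cartilage-like clusters 20 and 109 at E11.5. Fewer or more genes enter these counts by construction. Of the values for single genes or pairs, 195 stayed, 81 moved and 3 reversed: Hbb-bs at E9.5 was 1.15 without Scrublet calls, Hbb-bh1 at E9.5 was 0.12 in the sclerotome-like cluster and E330013P04Rik at E11.5 was 0.19 in the cartilage-like clusters; the cause was not tested. By the mean over cells, 4 genes in place of 5 were 2-fold lower at E11.5, since Pcdh8 was at -0.91. Of the 21 segmentation pairs, 13 to 17 had an interval above 1 under the alternatives, except that detection from 2 UMIs left 20 pairs, 13 of them above 1.

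Depth limits the sparse genes most: Tbx6, Mesp1 and Mesp2 had under 50 UMIs in any library, so few cells carry their co-detection.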
